A study of Danio rerio with 11 samples.

Results

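The genes described are ern1 and 8 other genes of the unfolded protein response, measured in whole zebrafish larvae whose parents had been exposed to phthalates. They are 9 of 27625 genes in the files. Gene ern1 was taken by its Ensembl ID having been chosen by its difference between offspring of parents exposed to dibutyl phthalate and controls, so its levels in those larvae and in controls are a description with no test. The other 8 were taken by symbol: xbp1, atf6, eif2ak3, hspa5, ddit3, atf4a, atf4b and hsp90b1. The question is whether the 8 follow ern1 across the libraries. All 9 passed the filter on low values.

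Larvae of the AB strain, wild type in genotype, were collected at 120 h after fertilization. The parents of exposed groups had lived for 30 days with dibutyl phthalate (DBP, 3 libraries), with its isomer diisobutyl phthalate (DiBP, 3 libraries) or with both (the combined exposure, 3 libraries). Those of the control group (2 libraries) had neither, and the labels give no period for them. Doses, the exposed sex and whether replicates came from separate clutches or tanks are not given in the sources used here, and p-values therefore measure only how far these samples vary, which may be technical variation. The series text describes 3 libraries per group, and 2 control libraries were analysed here.

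The endoplasmic reticulum (ER) folds proteins that will be secreted or placed in membranes. When unfolded protein builds up there, 3 membrane sensors respond. Ern1 (IRE1 alpha) cuts xbp1 mRNA so that it is spliced into the form for an active transcription factor, Eif2ak3 (PERK) phosphorylates eIF2 alpha and favours translation of ATF4, and Atf6 is cleaved to release a transcription factor. In mammals their targets include the chaperones HSPA5 (BiP) and HSP90B1 (GRP94) and the transcription factor DDIT3 (CHOP). The response is known for its role in secretory tissues such as the exocrine pancreas. One value per gene shows neither splicing of xbp1 nor phosphorylation or cleavage of a sensor, and in whole larvae fewer cells of a type and less RNA per cell cannot be told apart.

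Levels below are FPKM (fragments scaled to gene length and library total) divided by a library scaling factor (TMM), and differences, given ± SE, are taken after log2 of FPKM plus 0.1, a scale that understates the change of low genes. A difference passed the test when its adjusted p in limma, over 19465 genes, was under 0.05. Depth ran from 13396589 to 15381114 reads per library. Control libraries 1 and 2 differed by 2-fold or more in 2338 genes, and combined library 3 differed from combined libraries 1 and 2 in 1236 and 1219, where the other replicate pairs differed in 362 to 563. The counts do not say which control is the unusual one. On the first principal component control library 1 lay at -71.2, control library 2 at -21.9 and the combined libraries at -29.4 to -24.1. Control library 1 and combined library 3 are called the libraries that stood apart, and calls that rest on them are given with and without them where such fits were run. Fits that leave out a control library, alone or with combined library 3, keep 1 control. They hold no spread within controls, which their p-values therefore do not measure.

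Gene ern1 (ENSDARG00000013997) had 5.59, 5.39 and 6.41 FPKM in the DBP libraries, 2.16, 2.19 and 1.94 in the DiBP libraries, 1.53, 1.58 and 1.74 in the combined libraries, and 2.1 and 1.82 in the controls. The DBP libraries stood alone: their lowest value, 5.39, was 2.46 times the highest value of any other library. Group means were 5.79 ± 0.54 with DBP, 2.1 ± 0.14 with DiBP, 1.61 ± 0.11 with the combined exposure (SD, n = 3 each) and 1.96 ± 0.20 in controls (SD, n = 2). DBP minus control was 1.52, or 2.86 times, and between 1.2 (pseudocount of 1) and 1.61 (without both libraries that stood apart) under every alternative run. Combined minus DBP was -1.78 on the log2 scale, so that larvae of parents given both phthalates had ern1 far below the level of larvae of parents given DBP alone. DiBP minus control was 0.10 and combined minus control -0.26.

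The difference of combined from DiBP larvae uses no library of the contrast that chose ern1, and is the test of it. Its SE, however, rests on 1 estimate of spread from all 11 libraries, those of that contrast included. The adjusted p is therefore not fully independent of the choice of ern1. Gene ern1 was lower with both phthalates than with DiBP alone (log2 difference -0.36 ± 0.11, or 0.78 times, 95% interval -0.59 to -0.13, adjusted p = 0.0277), and the 3 combined libraries all lay below the 3 DiBP libraries. The order of groups was DBP, DiBP, control and combined, in which the neighbours DiBP and control overlapped and control and combined did not. The call was lost without DiBP library 1 (-0.34, adjusted p = 0.0912), DiBP library 2 (-0.33, 0.0933), combined library 1 (-0.32, 0.0929) or combined library 2 (-0.34, 0.0788). It was also lost with values as deposited (-0.25, adjusted p = 0.101), a scaling that moved the median of all genes in this comparison by 0.11.

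**Figure D1:**
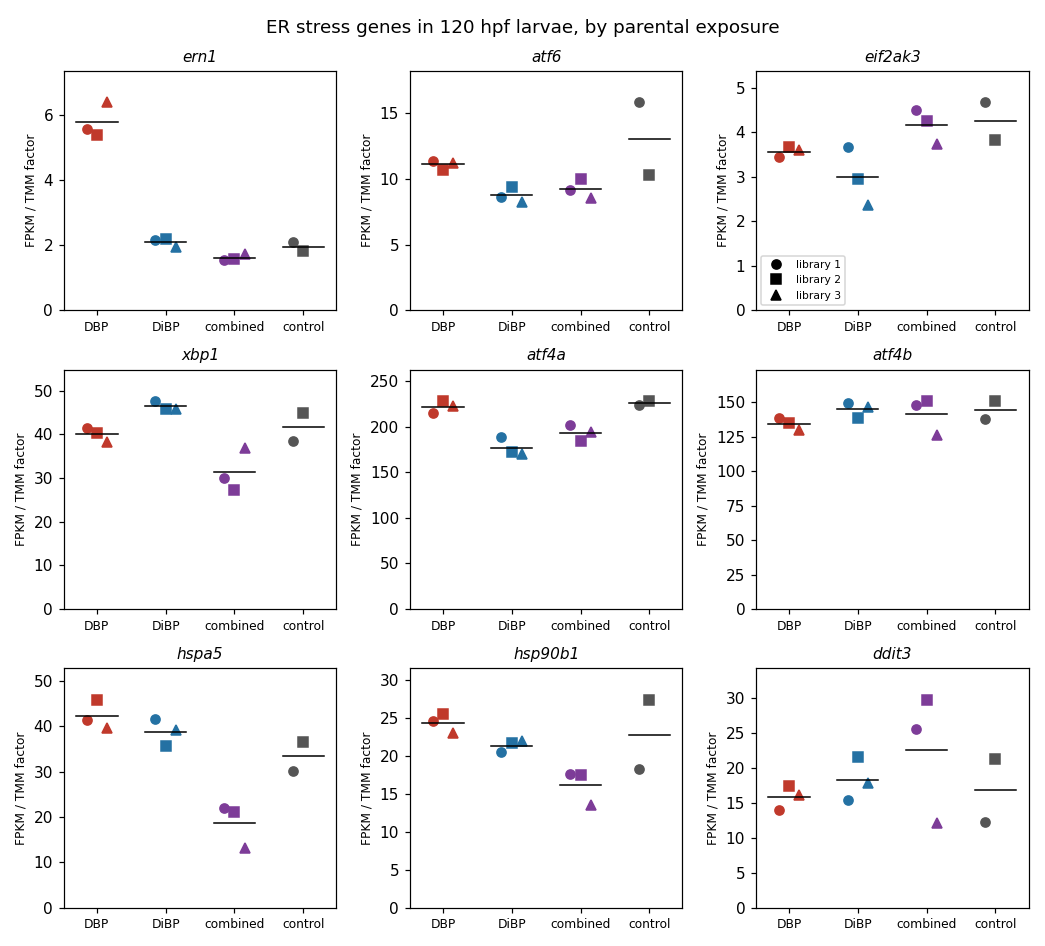
Level of each of the 9 genes by library, as FPKM divided by the TMM factor on a linear axis that starts at 0, with 1 point per library (circle, square and triangle for libraries 1, 2 and 3), a bar at each group mean and groups in the order DBP, DiBP, combined and control. The 3 DBP libraries stand above all others for ern1 (5.39 to 6.41 FPKM), whereas hspa5 is lowest in the combined libraries (13.2 to 21.9 FPKM).

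Of the 8 other genes, 0 passed the test between DBP and control, where 15.1% of all genes did. At an unadjusted p under 0.05 the count was also 0, and voom on the recovered reads, the other method run, called 0. The high ern1 of DBP larvae stood beside 8 genes of its pathway with differences between -0.25 (eif2ak3) and 0.35 (hspa5). The test left room for changes of moderate size, since the 95% interval of hspa5 ran from -0.06 to 0.75. Values moved when libraries were left out. In fits with 1 control, atf6 was -0.51 and hsp90b1 0.42 without control library 2, and ddit3 was -0.43 without both libraries that stood apart. Without combined library 3 hspa5 was higher (0.35, adjusted p = 0.041).

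Among the other sensors, atf6 (ENSDARG00000012656) had 11.4, 10.7 and 11.2 FPKM with DBP, 8.63, 9.34 and 8.23 with DiBP, 9.18, 9.97 and 8.54 with the combined exposure, and 15.9 and 10.3 in controls. Control library 1 was the highest of all, and DBP and control overlapped. The DBP larvae differed from controls by -0.20 ± 0.15 (adjusted p = 0.394). DiBP larvae, all below both controls, had less (-0.54 ± 0.15, adjusted p = 0.0175), a call that rested on control library 1 (-0.24 without it) and on DiBP library 3 (-0.51 without it, adjusted p = 0.0575).

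The kinase gene eif2ak3 (ENSDARG00000062139) had 3.44, 3.66 and 3.59 FPKM with DBP, 3.68, 2.95 and 2.36 with DiBP, 4.5, 4.25 and 3.74 with the combined exposure, and 4.69 and 3.84 in controls. The 3 DBP values lay below both controls, yet the difference, -0.25 ± 0.17, did not pass (adjusted p = 0.348). DiBP larvae had less than controls (-0.51 ± 0.17, adjusted p = 0.0373) and combined larvae more than DiBP larvae (0.48 ± 0.15, adjusted p = 0.0351). The DiBP call was lost without control library 1 (-0.38), DiBP library 2 (-0.51), DiBP library 3 (-0.36) or combined library 2 (-0.51), and the combined call without DiBP library 2 (0.48), DiBP library 3 (0.33), combined library 1 (0.42) or combined library 2 (0.46).

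The transcription factor gene xbp1 (ENSDARG00000035622), whose mRNA Ern1 cuts, had 41.5, 40.4 and 38.3 FPKM with DBP, 47.7, 45.9 and 45.7 with DiBP, 30.1, 27.2 and 36.9 with the combined exposure, and 38.4 and 45.0 in controls. Total xbp1 with DBP lay across the control range (-0.055 ± 0.12, 95% interval -0.32 to 0.21, adjusted p = 0.803). The combined libraries were the lowest 3 of the 11. They were lower than with DiBP (-0.58 ± 0.11, 0.671 times, adjusted p = 0.00257), a call kept with every library left out in turn (-0.70 to -0.48). They were lower than with DBP (-0.36 ± 0.11, adjusted p = 0.0354), a call lost without any 1 of DBP libraries 1 to 3, DiBP libraries 1 to 3 or combined libraries 1 and 2 (-0.40 to -0.26 without them).

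The ATF4 genes are a pair of zebrafish copies of the factor that drives amino acid and stress genes. Gene atf4a (ENSDARG00000111939), at 215.0, 228.5 and 223.1 FPKM with DBP, 188.7, 172.2 and 169.9 with DiBP, 201.9, 184.1 and 194.7 with the combined exposure, and 223.7 and 228.0 in controls, was the highest of the 9 in every library. DBP and control overlapped (-0.024 ± 0.09, adjusted p = 0.889). DiBP libraries were all lower than controls (-0.35 ± 0.09, or 0.783 times, adjusted p = 0.0122), with -0.40 to -0.33 when each library was left out, and DBP was higher than DiBP (0.33 ± 0.08, adjusted p = 0.0211). The call between the isomers was lost without DBP library 1 (0.36), DBP library 2 (0.31), DBP library 3 (0.33), DiBP library 2 (0.31) or DiBP library 3 (0.30). Gene atf4b (ENSDARG00000038141) lay between 126.1 and 151.0 FPKM in all 11 libraries, with overlapping groups and no call in any comparison with all libraries. Its interaction, defined below, was 0.065 with all libraries and 0.215 without both libraries that stood apart.

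The chaperone gene hspa5 (ENSDARG00000103846), for the most abundant folding chaperone of the ER, had 41.5, 45.9 and 39.6 FPKM with DBP, 41.6, 35.6 and 39.1 with DiBP, 21.9, 21.1 and 13.2 with the combined exposure, and 30.1 and 36.6 in controls. All 3 DBP values were above both controls, but the difference (0.35 ± 0.19, adjusted p = 0.228) did not pass. The combined libraries were the lowest 3 of the 11. Combined larvae had less than DiBP larvae (-1.08 ± 0.17, 0.474 times, adjusted p = 0.000639) and less than DBP larvae (-1.21 ± 0.17, 0.433 times, adjusted p = 0.000571). Both calls held without any 1 library, between -1.21 and -0.84 against DiBP and between -1.34 and -0.97 against DBP. Against control the difference was -0.86 ± 0.19 (0.551 times, adjusted p = 0.0295), lost without any 1 library of DBP or DiBP (adjusted p 0.0504 to 0.0541, differences -0.863 to -0.86).

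The other ER chaperone gene, hsp90b1 (ENSDARG00000003570), had 24.6, 25.5 and 23.0 FPKM with DBP, 20.5, 21.7 and 21.9 with DiBP, 17.6, 17.5 and 13.5 with the combined exposure, and 18.2 and 27.4 in controls. The controls spanned all DBP and DiBP values. The combined libraries were the lowest 3 and differed from DBP (-0.60 ± 0.14, 0.662 times, adjusted p = 0.0127), and that call was lost without DBP library 2 (-0.56, adjusted p = 0.0548). The difference from DiBP, -0.41 ± 0.14, did not pass (adjusted p = 0.0571), although it did without control library 1 or control library 2 (-0.40 each, adjusted p = 0.00642 and 0.00638).

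Gene ddit3 (ENSDARG00000059836), the factor tied to cell death under lasting ER stress, had 14.0, 17.3 and 16.0 FPKM with DBP, 15.4, 21.6 and 17.9 with DiBP, 25.5, 29.7 and 12.1 with the combined exposure, and 12.3 and 21.3 in controls. The lowest value of all was combined library 3 and the highest combined library 2, so the group with the most spread was the combined one. DBP minus control was -0.04 ± 0.32 (adjusted p = 0.95), and no comparison passed for ddit3 with all libraries. Without combined library 3, ddit3 was higher with the combined exposure than with DBP (0.80, adjusted p = 0.02). That library held the lowest ddit3 value, so leaving it out takes away most of the spread of the combined group. Without both libraries that stood apart, a fit with 1 control, combined minus DBP of ddit3 was 0.80 and combined minus DiBP 0.60. Its interaction, defined below, was then 1.04, against 0.25 (adjusted p = 0.694) with all libraries.

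Over the 8 genes, DiBP against control had 3 calls, all lower (atf6, eif2ak3 and atf4a), where 29.8% of all genes passed. Combined against control had 1, hspa5, which was lower, where 3.45% did, and combined against DiBP had 3 (xbp1 and hspa5 lower, eif2ak3 higher), where 24% did. Combined against DBP had 3, all lower (xbp1, hspa5 and hsp90b1), where 20.1% did, and DBP against DiBP had 1, atf4a, where 12.3% did (6.14% higher and 6.15% lower). The comparisons with control share the 2 control libraries. Each of these counts lies within 2 genes of the number that the share of all genes would give among 8.

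**Figure D2:**
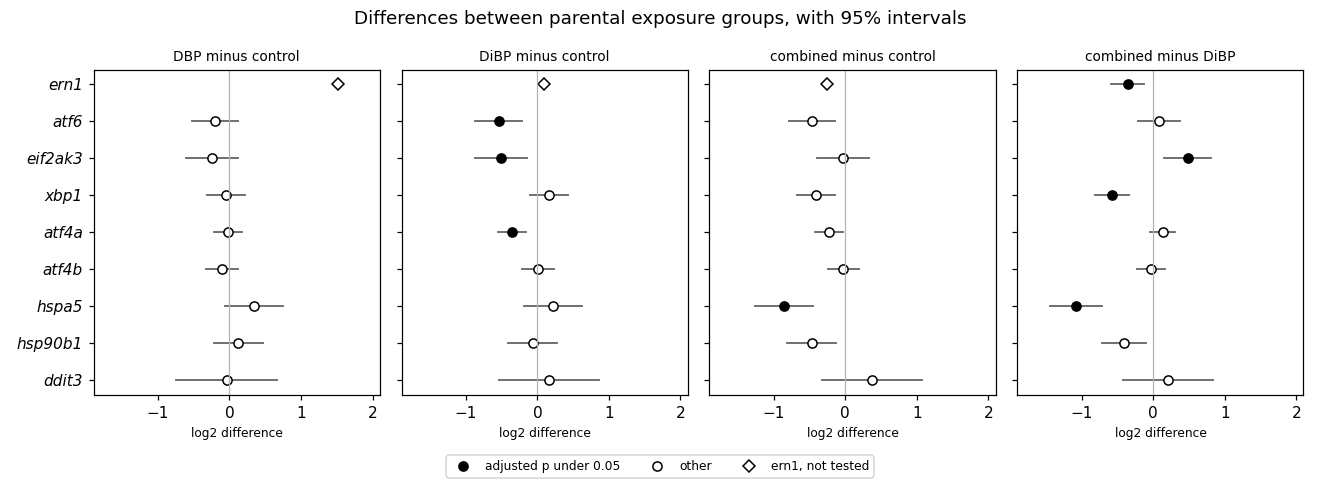
Log2 differences of the 9 genes in 4 comparisons (horizontal axis) with 95% intervals, filled circles for an adjusted p under 0.05 and diamonds without an interval for ern1 where it was not tested. The ern1 difference between DBP and control, 1.52, lies right of all others in that panel, and hspa5 is the leftmost gene in both panels of the combined exposure.

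Whether the effect of DBP differed with DiBP present was tested by the interaction, the difference of combined from DiBP larvae minus that of DBP larvae from controls, in which 34% of all genes passed. Genes hspa5 (-1.42 ± 0.25, adjusted p = 0.0011) and xbp1 (-0.52 ± 0.16, adjusted p = 0.028) had negative values and eif2ak3 a positive value (0.72 ± 0.22, adjusted p = 0.0258). The value of hspa5 kept its call without any 1 library (-1.56 to -1.19). That of xbp1 was lost without control library 1 (-0.40), DBP library 1 (-0.49) or 2 (-0.51), DiBP library 1 (-0.50), 2 (-0.53) or 3 (-0.53), or combined library 1 (-0.49) or 2 (-0.42), and that of eif2ak3 without control library 1 (0.59), DBP library 1 (0.70), DiBP library 2 (0.72) or 3 (0.57), or combined library 1 (0.67) or 2 (0.71). With values as deposited, a scaling that moved the median of all genes here by 0.20, the xbp1 call was lost (-0.31, adjusted p = 0.113) and atf4a passed (0.37, adjusted p = 0.0254). For ern1 the same difference was -1.88, given as a description.

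The wider pathway was followed with 5 lists of known targets and partners, none holding the 9 genes, of which 228 genes were tested. In DBP larvae 31 were higher and 2 lower than in controls, that is 13.6% and 0.877%, where 9.61% and 5.52% of all genes were. With values as deposited, 21 were higher and 7 lower. The median of the lists was 0.11, against -0.011 for all genes. Left out in turn, single libraries moved the counts by over 1.5 times: without DBP library 1, 19 were higher and 0 lower, without DBP library 2 the counts were 14 and 0, without DBP library 3 they were 17 and 0, and without control library 2 they were 50 and 14. The lower count also moved without control library 1 (1) and without combined library 3 (6). Calls over all genes moved too, from 1556 to 6056 without single libraries, against 2946 with all libraries. Among folding genes of the ER, known as ATF6 targets, 4 of 41 passed, all higher. Among genes of secretory entry and transport, known as XBP1 targets, 10 of 61 passed, all higher, and among targets of PERK and ATF4 14 of 50, all higher. More genes of these lists were higher with DiBP than in controls, although ern1 was near control there. With DiBP 8 folding genes were higher and 5 lower, 15 XBP1 targets higher and 2 lower, and 19 PERK and ATF4 targets higher and 5 lower. Of all genes 15.8% were higher and 14% lower in that comparison. In the list of ER-associated degradation 2 of 41 were higher and 1 lower, and among other transducers 1 of 35 was higher and 1 lower.

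The share of folding genes that were higher with DBP, 9.76%, was close to the 9.61% of all genes. P4HB (ENSDARG00000105116), a protein disulfide isomerase, had 30.4, 30.5 and 27.9 FPKM with DBP, 27.4, 28.1 and 28.1 with DiBP, and 19.4 and 20.3 in controls. It was higher with DBP than in controls (0.57 ± 0.08, adjusted p = 0.00137) and also with DiBP (0.49 ± 0.08, adjusted p = 0.00147). Its relative TXNDC5 (ENSDARG00000009342) rose by 1.04 ± 0.19 (adjusted p = 0.00378) with DBP, with 0.68 without control library 1, and by 0.90 ± 0.19 with DiBP (adjusted p = 0.00397). CDNF (ENSDARG00000075501), a trophic factor of the ER, had 4.69, 5.51 and 5.60 FPKM with DBP, 5.29, 4.78 and 5.14 with DiBP, and 0.28 and 2.55 in controls, and was higher with DBP (2.41 ± 0.58, adjusted p = 0.0164) and with DiBP (2.36 ± 0.58, adjusted p = 0.00975). The call of CDNF with DBP was lost without control library 1 (1.01), DBP library 2 (2.38) or DBP library 3 (2.37), and without control library 2 the difference was 3.81. The calls of CDNF and the other list genes between DiBP and control were not rerun without control library 1.

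Genes of entry into and export from the ER that rose with DBP included SRP19 (ENSDARG00000035699), of the signal recognition particle, with 7.57, 8.03 and 7.53 FPKM with DBP, 6.83, 6.03 and 6.43 with DiBP, and 3.61 and 5.0 in controls (0.84 ± 0.15 with DBP, adjusted p = 0.00399, and 0.58 ± 0.15 with DiBP, adjusted p = 0.0129). The coat protein gene SEC24A (ENSDARG00000104375) rose by 0.50 ± 0.11 (adjusted p = 0.0086) and the coat GTPase gene sar1ab (ENSDARG00000033320) by 0.69 ± 0.15 (adjusted p = 0.0113), the second lost without control library 1 (0.44). With DiBP the differences from control were 1.01 ± 0.11 for SEC24A and 0.85 ± 0.15 for sar1ab (adjusted p = 7.38e-05 and 0.00184). Of the ATF4 targets, GADD45A (ENSDARG00000104571), a growth arrest gene, had 33.6, 36.0 and 34.2 FPKM with DBP, 48.4, 46.2 and 46.6 with DiBP, and 24.0 and 21.5 in controls (0.61 ± 0.09 with DBP, adjusted p = 0.00137, and 1.05 ± 0.09 with DiBP, adjusted p = 1.86e-05). CTH (ENSDARG00000074301; 0.65 ± 0.10, adjusted p = 0.00161) and cbsb (ENSDARG00000010946; 0.52 ± 0.08, adjusted p = 0.00214), both of cysteine synthesis, rose with DBP as well, and their differences from control with DiBP were 1.04 ± 0.10 and 0.85 ± 0.08 (adjusted p = 4.04e-05 and 4.96e-05). These 3 ATF4 targets kept their calls with DBP without any 1 library. DBP minus DiBP was -0.51 for SEC24A, -0.44 for GADD45A, -0.39 for CTH and -0.34 for cbsb (adjusted p = 0.00523, 0.00454, 0.0141 and 0.0131), so these 4 genes were lower in DBP larvae than in DiBP larvae. For sar1ab it was -0.16 (adjusted p = 0.469). It was positive but did not pass for SRP19 (0.26, adjusted p = 0.23), TXNDC5 (0.14, 0.61), P4HB (0.08, 0.494) and CDNF (0.05, 0.963).

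In degradation and among the regulators, changes were few. CDK5RAP3 (ENSDARG00000045092), of the UFM1 ligase, rose by 0.48 ± 0.12 (adjusted p = 0.0225), lost without DBP library 2 (0.41) or 3 (0.45). Gene fam8a1a (ENSDARG00000017111), of the HRD1 ligase complex, fell (-1.27 ± 0.37, adjusted p = 0.0367) at under 1.1 FPKM in all 5 libraries, EIF2B5 (ENSDARG00000074995), of the exchange factor for eIF2, rose (0.43 ± 0.12, adjusted p = 0.0343), and the adaptor NCK1 (ENSDARG00000074262) fell (-0.50 ± 0.15, adjusted p = 0.0405). Each of these 3 calls was lost without any 1 DBP library or without control library 1. They were also lost without control library 2, DiBP library 2 or combined library 1 for fam8a1a, without DiBP library 1 or 3 for EIF2B5, and without any 1 DiBP library or combined library 1 or 2 for NCK1. The differences were then -1.48 to -1.07 for fam8a1a, 0.38 to 0.45 for EIF2B5 and -0.57 to -0.41 for NCK1.

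The targets named most often as readouts of the response, chosen here after values were seen, mostly did not pass between DBP and control. The XBP1 and ATF6 targets HYOU1 (ENSDARG00000013670, 0.13 ± 0.18), SDF2L1 (ENSDARG00000035631, -0.016 ± 0.14) and PDIA4 (ENSDARG00000018491, -0.33 ± 0.16), the degradation genes HERPUD1 (ENSDARG00000024314, 0.23 ± 0.12) and EDEM1 (ENSDARG00000025094, 0.18 ± 0.11), and the ATF4 targets ATF3 (ENSDARG00000007823, 0.052 ± 0.17), TRIB3 (ENSDARG00000016200, 0.11 ± 0.13) and ASNS (ENSDARG00000016375, -0.021 ± 0.33) had adjusted p of 0.17 or more. CALR, CRELD2, MANF, SEL1L, SYVN1, DERL1 and ppp1r15a (ENSDARG00000069135) did not pass either (adjusted p of 0.254 or more). DNAJB9 (ENSDARG00000052072), a co-chaperone gene that reads out XBP1, was near the floor of detection, with 1, 0 and 4 reads in the DBP libraries and 1 and 10 reads in the controls (adjusted p = 0.392). A second DNAJB9 entry (ENSDARG00000016886) had 4, 1 and 2 reads with DBP and 0 and 2 in controls, too few to be tested. A pair of ER co-chaperone genes rose with DBP: dnajc3a (ENSDARG00000041110) had 7.85, 7.06 and 6.41 FPKM with DBP and 4.37 and 4.62 in controls (0.65 ± 0.16, adjusted p = 0.0172), and DNAJB11 (ENSDARG00000015088) had 2.76 FPKM with DBP and 1.85 in controls (0.57 ± 0.17, adjusted p = 0.0417). Single libraries were not left out for either call. The copy dnajc3b (ENSDARG00000017874) did not rise with DBP (-0.091 ± 0.15, adjusted p = 0.726). With DiBP, DNAJB11 was higher by as much (0.58 ± 0.17, adjusted p = 0.0222) and dnajc3a did not pass (0.40 ± 0.16, adjusted p = 0.0742). Of the other readouts, PDIA4 (-0.60 ± 0.16, adjusted p = 0.0131), SDF2L1 (-0.53 ± 0.14, 0.0145) and ppp1r15a (-0.54 ± 0.13, 0.00922) were lower with DiBP than in controls. TRIB3 was higher (0.38 ± 0.13, adjusted p = 0.036), and the rest did not pass. The second IRE1 gene, ern2 (ENSDARG00000058475), averaged 0.60 FPKM with DBP and 0.70 in controls (-0.15 ± 0.29, adjusted p = 0.779).

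**Figure D3:**
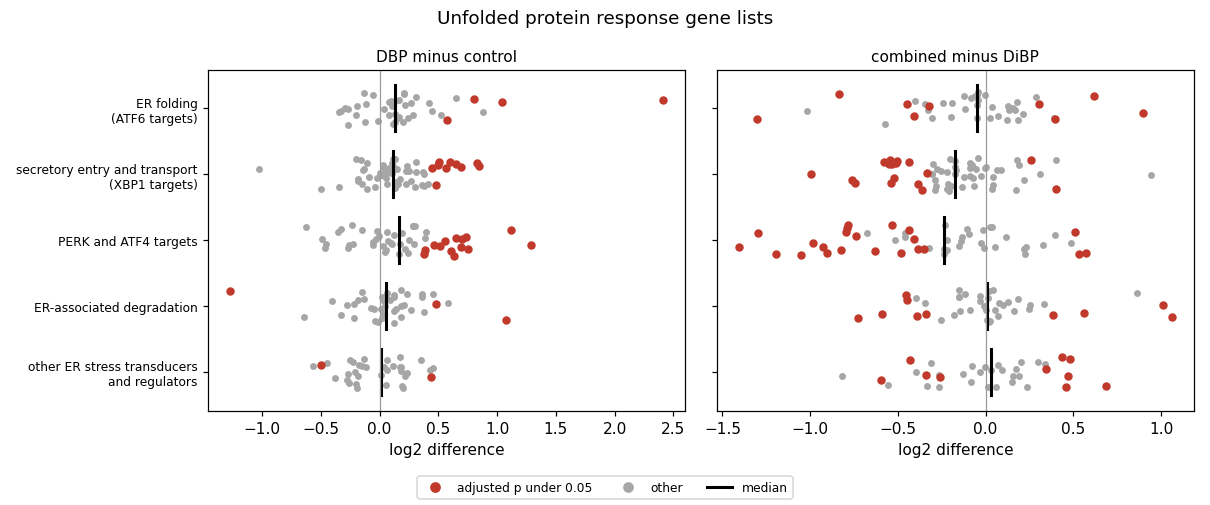
Log2 differences of the genes of 5 unfolded protein response lists, 1 point per gene, red for an adjusted p under 0.05 and grey for the rest, with a black bar at the list median. In DBP minus control the PERK and ATF4 targets have a median of 0.17 with 14 of 50 higher, and in combined minus DiBP a median of -0.24 with 19 of 50 lower. In DiBP minus control, which is not drawn, 19 of the 50 were higher and 5 lower.

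In the same lists 49 genes were lower and 19 higher with the combined exposure than with DiBP, that is 21.5% and 8.33%, where 12.9% and 11.1% of all genes were. With values as deposited 33 were lower and 26 higher. Without DiBP library 1 the counts were 29 lower and 14 higher, without DiBP library 2 they were 37 and 10, and without DiBP library 3 they were 30 and 9. Calls over all genes in this comparison ran from 2947 to 6737 without single libraries, against 4675 with all libraries. Of the 31 genes higher with DBP than in controls, 23 were among the 49 lower in this comparison, that is 74.2% of the 31 and 46.9% of the 49. For all genes the shares were 49.8% and 37.2%. The comparisons share no library, but both take their SE from the same estimate of spread per gene. Their calls are therefore not independent. Targets of PERK and ATF4 had 19 of 50 lower and 3 higher, and XBP1 targets 15 of 61 lower and 2 higher.

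IARS1 (ENSDARG00000007955), the isoleucyl-tRNA synthetase, had 4.59, 4.54 and 5.04 FPKM with the combined exposure and 11.5, 11.4 and 12.3 with DiBP (-1.30 ± 0.12, adjusted p = 2.27e-05). GADD45A (-0.82 ± 0.08, adjusted p = 2.76e-05) and cbsb (-0.80 ± 0.07, adjusted p = 2.13e-05) were lower as well. Of the ATF4 readouts chosen after values were seen, ATF3 (-1.06 ± 0.15, adjusted p = 0.000419) and TRIB3 (-0.39 ± 0.11, adjusted p = 0.0243) were lower. ASNS (0.49 ± 0.29, adjusted p = 0.257) and ppp1r15a (-0.012 ± 0.12, adjusted p = 0.955) did not pass. The co-chaperone genes dnajc3a (-0.55 ± 0.14, adjusted p = 0.0132) and DNAJB11 (-0.53 ± 0.15, adjusted p = 0.0228), chosen in the same way, were lower. They were also lower than with DBP (-0.80 ± 0.14 and -0.52 ± 0.15, adjusted p = 0.00237 and 0.0311). ATF3 was lower than with DBP too (-0.755 ± 0.15, adjusted p = 0.00527). DNAJB9 (ENSDARG00000052072), near the floor, was higher than with DBP (2.09 ± 0.68, adjusted p = 0.0478). Compared with controls, combined larvae had less ATF3 (-0.70 ± 0.17, adjusted p = 0.0452) and less ppp1r15a (-0.55 ± 0.13, adjusted p = 0.041). The other readouts tested did not pass between combined larvae and controls. Single libraries were not left out for these calls. The receptor gene srprb (ENSDARG00000030949), which docks ribosomes at the ER, had 19.8, 18.5 and 21.9 FPKM with the combined exposure and 41.3, 38.4 and 40.6 with DiBP (-1.0 ± 0.11, adjusted p = 6.94e-05). SEC24A (-0.74 ± 0.09) and DAD1 (ENSDARG00000102105, -0.54 ± 0.10), of the enzyme that adds sugar chains, were lower too. Folding enzymes split, with P4HB lower (-0.45 ± 0.08) and TXNDC12 (ENSDARG00000038980, 0.90 ± 0.11) and SDF2L1 (0.62 ± 0.13), a partner of HSPA5, higher.

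In degradation, NPLOC4 (ENSDARG00000100487, -0.73 ± 0.14) of the extraction machinery and SELENOK (ENSDARG00000100823, -0.59 ± 0.12), a selenoprotein of the ER membrane, were lower and the conjugating enzyme gene UBE2G1 (ENSDARG00000015292, 0.56 ± 0.09) higher with both phthalates than with DiBP. EIF2B5 (-0.60 ± 0.11) and EIF2S1 (ENSDARG00000005827, -0.43 ± 0.08), the eIF2 alpha that PERK phosphorylates, were lower, and NFYC (ENSDARG00000070151, 0.46 ± 0.11), of the factor that binds beside ATF6, higher. The list genes named above as lower or higher in this comparison kept their calls without any 1 library. ATF3, TRIB3, dnajc3a and DNAJB11 are excepted, since single libraries were not left out for them. Against controls, 56 genes of the lists were higher and 18 lower with DiBP, that is 24.6% and 7.89%, where 15.8% and 14% of all genes were. With the combined exposure 3 were higher and 5 lower than in controls, that is 1.32% and 2.19%, where 1.76% and 1.69% of all genes were. Combined larvae had 37 lower and 15 higher than DBP larvae, where 11% and 9.14% of all genes were, a split that turned with values as deposited (19 lower and 35 higher), where the median of all genes moved by 0.15. Without control library 2 the lists had 67 higher and 33 lower with DiBP than in controls, and 30 higher and 15 lower with the combined exposure. Without either control library, combined larvae had 67 lower and 22 higher than DBP larvae. Without DBP library 1, DBP library 3 or combined library 1 they had 25 lower and 9 higher, without DBP library 2 they had 23 and 9, and without combined library 2 they had 26 and 9. Calls over all genes moved as well without single libraries. They ran from 3626 to 8539 for DiBP minus control, 243 to 4660 for combined minus control and 2218 to 6224 for combined minus DBP.

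Because ern1 falls into separate clusters, DBP against the rest, no correlation of the 8 genes with it is given for the values of all 11 libraries. As a description with no test, since the control values belong to the contrast that chose ern1, within the 8 libraries of DiBP, combined and control larvae, xbp1 had the highest correlation with ern1 (Pearson r = 0.83, Spearman rho = 0.88). Without combined libraries 1 and 2, the farthest from the ern1 median, r was 0.47. Gene hspa5 had r = 0.67 (rho = 0.64) and the other 6 genes r between -0.53 (ddit3) and 0.37 (hsp90b1). Deviations from group means over all 11 libraries gave r = 0.0072 for xbp1, -0.67 for hspa5 and -0.77 for hsp90b1, as a description. They gave -0.71 for atf4b, -0.53 for ddit3, 0.055 for atf4a, 0.33 for eif2ak3 and 0.47 for atf6.

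The genes most like ern1, by Pearson r over the 11 libraries on the log2 scale among 15620 genes with a symbol and a mean of 20 or more reads, were IPO8 (ENSDARG00000058159, r = 0.975), an importin, C1H4orf33 (ENSDARG00000017985, 0.967), the uncharacterised ENSDARG00000105731 (0.965), IFT70A (ENSDARG00000038024, 0.961), of cilia transport, CYP4V2 (ENSDARG00000061585, 0.959), a fatty acid hydroxylase, si:ch211-112l17.3 (ENSDARG00000092398, 0.953), plgrkt (ENSDARG00000100789, 0.951), a plasminogen receptor, and CDC40 (ENSDARG00000041226, 0.95), a splicing factor. The ranking is a description: it uses the DBP and control values that chose ern1, and all 8 share with ern1 the high DBP libraries, which raise r. IPO8 averaged 22.4 FPKM with DBP, 10.6 with DiBP, 7.01 with the combined exposure and 8.59 in controls, and had r = 0.916 in the 8 libraries without DBP. In contrast ENSDARG00000105731 averaged 1.55 FPKM with DBP and at most 0.0234 in any other group, and had r = -0.141 in the 8. The r without DBP was 0.808 for IFT70A and 0.795 for plgrkt. It was 0.536 for CYP4V2, 0.528 for CDC40, 0.318 for si:ch211-112l17.3 and 0.301 for C1H4orf33.

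Marker genes of several tissues differed between the groups as well, and their part in the results was not tested. Of all genes 9.61% were higher and 5.52% lower with DBP than in controls, the shares for the counts of that comparison below. Of 26 tested markers of the exocrine pancreas, a tissue rich in ER, 15 were higher and 0 lower with DBP than in controls, and their summed level was 1593 to 2136 FPKM with DBP, 1123 to 1171 with DiBP, 813.8 to 906.1 with the combined exposure, and 489.4 and 1261 in controls. The pancreas sum was highest in the DBP libraries, and no other library reached their sums. Gene ern1 was at 1.82 to 2.19 FPKM in the DiBP libraries and control library 2, and at 2.1 in control library 1, which had the lowest sum. The combined libraries, lowest for hspa5, had sums between those of the controls, and 16 of the 26 markers were lower than with DBP and 0 higher, where 11% and 9.14% of all genes were. Enterocyte markers summed to 1866 to 2003 FPKM with DBP, 1690 to 1925 with DiBP, 1006 to 1411 with the combined exposure, and 303.5 and 1242 in controls, and 20 of 28 were higher with DBP than in controls. Mucous cell markers summed to 659.7 to 731.7 FPKM with DBP, 624.6 to 670.9 with DiBP, 491.2 to 525.4 with the combined exposure, and 178.6 and 462.3 in controls. No library had more than 2 of the 29 pancreas markers at 0. Markers of the hatching gland, another secretory organ, summed to 12.69 to 19.65 FPKM in all libraries, with 2 to 4 of its 8 genes at 0. Of 23 liver markers 2 were higher and 1 lower with DBP than in controls, that is 8.7% and 4.35%, close to the shares of all genes. Tissues with no secretory role differed too: muscle markers summed to 52210 to 58580 FPKM with DBP, 47780 to 55480 with DiBP, 32890 to 45730 with the combined exposure, and 11480 and 39650 in controls, and 19 of 37 were higher with DBP than in controls. Of 32 tested lens markers 9 were lower with DBP than in controls. The sum over all 39 lens markers was 32900 FPKM in control library 1 and 5527 in control library 2. It was 3926 to 4476 with DBP, 2509 to 3150 with DiBP and 2314 to 3774 with the combined exposure. No marker count was rerun without control library 1, which lay far from control library 2 in the muscle and lens sums.

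**Figure D4:**
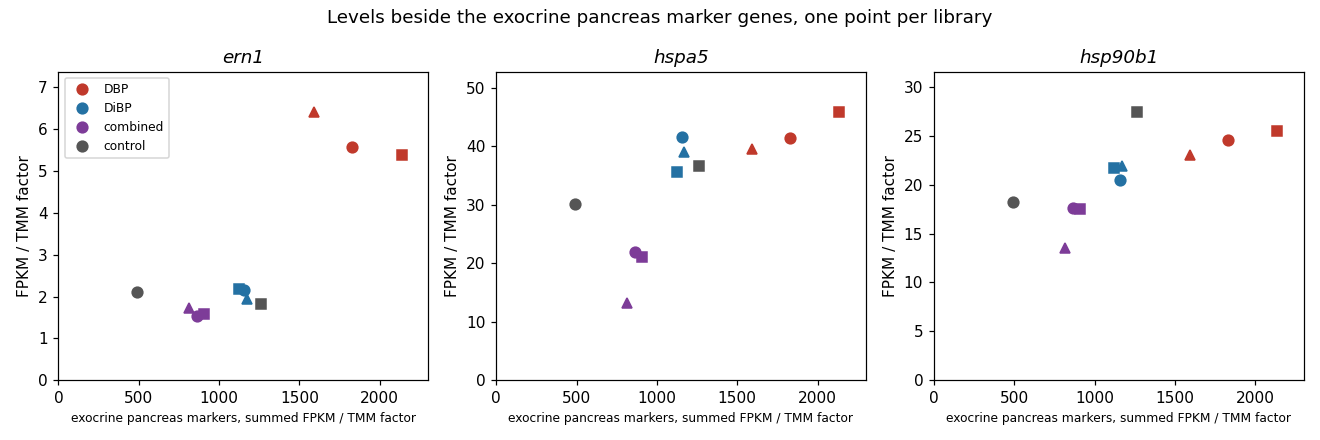
Level of ern1, hspa5 and hsp90b1 (FPKM divided by the TMM factor) against the summed level of exocrine pancreas markers, 1 point per library, coloured by group with a circle, square and triangle for libraries 1, 2 and 3. The DBP libraries lie apart for ern1 (5.39 to 6.41 FPKM at sums of 1593 to 2136), and the combined libraries lie lowest for hspa5 at sums of 813.8 to 906.1.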

How the data were processed

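The authors deposited an FPKM value for each gene in each library. GRCz10, HISAT2 2.1.0 and HTSeq 0.6.0 are named per the submitters' processing notes, and paired-end NEBNext Ultra libraries per the labels' protocols. Gene lengths, annotation and strand setting are not given in the sources used here, which leaves overlapping genes and near-identical copies uncertain.

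Whole reads behind the FPKM values were recovered (100% of values whole within 0.02 of a read). They gave the filter (CPM of 10 reads at median depth in 2 libraries and 15 reads in all, 8160 genes left out), the TMM factors (0.9346 to 1.1012), the variance trend and an alternative with voom. The test was limma 3.58.1 in R 4.3.3, with a pseudocount of 0.1 added to scaled FPKM before log2. All 11 libraries entered 1 fit (7 residual and 5.2 prior degrees of freedom), with Benjamini-Hochberg adjustment over 19465 genes. It was tested on simulated data. Correlations with ern1 are described without a test.

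The 9 genes and all lists were chosen with earlier results of these data known. Symbols come from a table of gene IDs, to which list names were matched. Named list genes are up to 3 per list with the smallest p among those called in DBP minus control and in combined minus DiBP, and the 8 genes with the highest r with ern1. One gene that this rule names is not reported here. Readout targets such as ATF3 were chosen after values were seen. No promoter or protein sequence was used here. The alternatives were RLE scaling, values as deposited, pseudocounts of 0.01 and 1, a mean CPM of 5 or more, no filter at all, voom, a replicate block, fits of the compared groups alone, and leaving out single libraries or both that stood apart. A variance trend on log2 FPKM was chosen after seeing the data. Figures used Matplotlib 3.10.9, Python 3.11.15 and NumPy 2.4.6.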

Additional observations from a re-analysis of the deposited data

Results flagged for a closer look

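The effect of DBP in the presence of DiBP, minus its effect without DiBP, was past the threshold in limma for 3 of the 8 genes taken by symbol. On the log2 scale it was -1.424 for hspa5, -0.521 for xbp1 and 0.724 for eif2ak3 (adjusted p = 0.0011, 0.028 and 0.0258), where 34% of all genes tested passed. A count of 3 among 8 lies near that share. The calls of xbp1 and eif2ak3 were lost without several single libraries, as listed above, and that of hspa5 was kept. The xbp1 call was lost with values as deposited (-0.308, adjusted p = 0.113) and with the replicate block (-0.494, adjusted p = 0.0547). Gene atf4a passed with values as deposited (0.367, adjusted p = 0.0254). For ern1 it was -1.876, and the difference was not tested because ern1 was chosen on DBP against control. Every DBP library was above both controls for ern1, and every combined library was below all DiBP libraries.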

How the results depend on the processing

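The calls of hspa5 against DiBP and against DBP in combined larvae, and of xbp1 against DiBP, held under every alternative run. The lower ern1 of combined than of DiBP larvae lost its call with values as deposited (-0.25), a pseudocount of 1 (-0.245) and another variance trend (-0.359, adjusted p = 0.0692), and it was -0.41 to -0.321 with single libraries left out.

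Calls among the 8 genes in combined minus control numbered 0 with values as deposited, no filter, the replicate block or only the compared groups, and 4 without both libraries that stood apart. In combined minus DBP they were 1 as deposited and 7 without both, in DiBP minus control 0 with only the compared groups, in DBP minus DiBP 4 with only those groups and 4 without both, in DBP minus control 1 without both, in combined minus DiBP 5 and in the interaction 5. Single libraries left out gave 0 to 2 for DBP minus control, 1 to 3 for DiBP minus control, 0 to 3 for combined minus control, 2 to 4 for combined minus DiBP, 1 to 5 for combined minus DBP, 0 to 2 for DBP minus DiBP and 1 to 5 for the interaction. Over all genes, the same fits gave 1556 to 6056 calls for DBP minus control (2946 with all libraries) and 3626 to 8539 for DiBP minus control (5807). They gave 243 to 4660 for combined minus control (671), 2947 to 6737 for combined minus DiBP (4675) and 2218 to 6224 for combined minus DBP (3915). For DBP minus DiBP they gave 1004 to 4588 (2392) and for the interaction 5269 to 8604 (6626).

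The ranges over all genes given above apply to the lists as well, since calls moved across the whole data set. Calls in the 5 lists, 33 in DBP minus control, became 11 with only the compared groups, 64 without both libraries that stood apart and 14 to 64 without single libraries. For combined minus control, 8 became 3 with no filter, 3 with the replicate block, 5 with another trend, 0 with only the compared groups, 27 without both and 2 to 45 without single libraries. For DBP minus DiBP, 34 became 102 with only the compared groups, 100 without both and 16 to 65. Without both, combined minus DiBP had 107 (39 to 92 without single libraries) and combined minus DBP 112 (32 to 89), while single libraries left 54 to 100 for DiBP minus control and 66 to 103 for the interaction. The interaction uses all groups, so no fit of compared groups alone was made.

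Differences that had not passed with all libraries turned sign under some alternatives. The ranges given for them also hold larger values, among them the differences given above for atf6 and hsp90b1 in DBP minus control. For atf4b these were DiBP minus control (-0.002 with RLE, -0.039 as deposited, -0.059 without both, -0.067 to 0.075 without single libraries), combined minus control (0.04 as deposited, 0.007 with a mean CPM of 5, 0.006 with the replicate block, -0.101 to 0.055) and combined minus DiBP (0.079 as deposited, 0.047 without both, -0.083 to 0.046). For eif2ak3, combined minus control was 0.036 as deposited, 0.004 with a mean CPM of 5, 0.045 with the block, 0.184 without both and -0.169 to 0.104 without single libraries. For ddit3, DBP minus control was 0.089 with the block and -0.441 to 0.355, DiBP minus control -0.233 without both and -0.241 to 0.555, combined minus control -0.03 to 0.766 and combined minus DiBP -0.041 to 0.602. DBP minus control was 0.108 without both for atf6 (-0.51 to 0.103 without single libraries), -0.171 for hsp90b1 (-0.176 to 0.417) and -0.175 to 0.061 for xbp1, and DiBP minus control of hsp90b1 was -0.369 to 0.225. Interaction values were -0.023 to 0.589 for atf6, -0.144 to 0.652 for ddit3 and -0.002 to 0.147 for atf4b.

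Correlations with ern1 without single libraries were 0.773 to 0.895 for xbp1, 0.609 to 0.818 for hspa5, 0.318 to 0.573 for hsp90b1, -0.324 to 0.355 for atf6 (-0.422 without both), -0.653 to -0.262 for eif2ak3, -0.767 to -0.344 for ddit3, -0.402 to 0.08 for atf4a and -0.605 to -0.007 for atf4b. Same-numbered libraries deviated together by -0.034 to 0.136 (15 pairs), and 6 of 11 correlated best with their own number. These values do not settle whether the numbers mark pairs. The main fit did not take them as pairs, and the replicate block did. With the replicate block the xbp1 interaction was -0.494 (adjusted p = 0.0547). The cause of these changes was not tested. With 2 controls that differ widely, comparisons with control are the least precise.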
